A study of Mus musculus with 44 samples.

Results

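Alpha-fetoprotein (Afp), transthyretin (Ttr), albumin (Alb), transferrin (Trf), retinol binding protein 4 (Rbp4), fetuin-A (Ahsg), fibrinogen-like 1 (Fgl1), regucalcin (Rgn) and clusterin (Clu) were followed as the serum and transport proteins of visceral endoderm. The 9 genes were taken by name from tables of 32287 gene identifiers, 1 identifier each, and were measured by RNA-seq in 44 mouse libraries made from small numbers of sorted or hand-picked cells. Levels are TPM, which scale each library to the same total and correct for transcript length, so levels of different genes can be set side by side. Each embryo was an aggregate of an mCherry+ morula (CD1/G4), which gives the extraembryonic lineages, and GFP+ embryonic stem cells (G4 in the labels, F1G4 in the study's methods), which give the embryo proper. Strain background and lineage therefore change together, the GFP+ cells are male and descend from 1 stem cell line, and the mCherry+ cells can be of either sex.

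At E6.5 the groups were GFP+ epiblast (Epi), mCherry+ distal extraembryonic endoderm (exEndo1) and mCherry+ proximal extraembryonic endoderm (exEndo2), dissected by hand from single embryos. At E9.5 they were mCherry+ EPCAM+ yolk sac endoderm (YsEndo), mCherry+ EPCAM+ midgut and hindgut (exMidgut, exHindgut) and GFP+ EPCAM+ midgut and hindgut with a low mCherry signal (emMidgut, emHindgut), each library from 4 pooled embryos. These 8 groups were wild type with n = 4 each. At E13.5 single embryos gave mCherry+ EPCAM+ small intestine and colon with Trp53 KO (exSI, exColon) and GFP+ EPCAM+ small intestine and colon that were WT (emSI, emColon), n = 3 each. The KO embryos were founders edited with Cas9 as zygotes, so their alleles can differ between embryos. Origin and Trp53 genotype cannot be told apart at E13.5. The Trp53 transcript was still present in the KO libraries, at 33.4 to 167 TPM against 151 to 245 TPM in the WT ones. EPCAM was the sort marker and is no finding here. The study's methods call the gut libraries of a group biological replicates, each pooled from its own tissues.

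Visceral endoderm is the absorptive epithelium that surrounds the early mouse embryo and later lines the yolk sac. Before the liver works it takes up maternal nutrients and secretes many of the plasma proteins that hepatocytes make afterwards. Afp and Alb are neighbouring members of the albumin family and carry fatty acids and other small ligands. Ttr carries thyroid hormone and, bound to Rbp4, retinol. Trf carries iron, Ahsg binds calcium phosphate, Fgl1 is a liver-secreted ligand of the receptor Lag3, Rgn is a calcium-handling enzyme of hepatocytes and Clu is a secreted chaperone.

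Afp and Alb are shown first, because they lie side by side in the genome and lay at or near opposite ends of the range of levels in YsEndo. In mm10 Alb spans chr5:90460897-90476602 and Afp chr5:90490737-90508907, both on the plus strand, with 14134 bases between them. RefSeq windows from 250 bases before to 50 after a start site matched 4 of the 9 genes by symbol, and those of Afp (GRCm38.p6, chr5:90490464-90490763, plus strand) and Alb (chr5:90460620-90460919, plus strand) read as follows, with GTTAAT, a motif of the HNF1 factors, in capitals:
Afp: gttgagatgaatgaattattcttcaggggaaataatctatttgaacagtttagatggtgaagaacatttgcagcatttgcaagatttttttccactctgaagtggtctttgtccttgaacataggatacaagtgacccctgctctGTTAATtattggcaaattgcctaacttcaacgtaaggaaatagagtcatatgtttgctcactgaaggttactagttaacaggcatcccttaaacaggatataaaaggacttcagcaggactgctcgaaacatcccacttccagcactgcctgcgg
Alb: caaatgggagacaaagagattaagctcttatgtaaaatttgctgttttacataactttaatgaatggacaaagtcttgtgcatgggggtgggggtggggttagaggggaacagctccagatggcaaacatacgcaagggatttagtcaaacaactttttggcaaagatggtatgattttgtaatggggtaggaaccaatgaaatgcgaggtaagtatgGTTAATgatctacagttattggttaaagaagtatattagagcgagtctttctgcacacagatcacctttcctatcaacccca

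The motif began 105 bases before the start site of Afp and 32 bases before that of Alb, in the same orientation. Of all 32851 windows of this length, 7.1% hold GTTAAT on either strand. The other motifs searched on both strands were TGTTTAC (FOXA, in 3.65% of windows), AGGTCA (nuclear receptors, 16.3%) and AGATAA (bound by the Gata factors, 11.2%), and neither gene's window held one of them. Both windows have 40.0% G and C and 3 CpG dinucleotides. Rbp4 had 2 windows, 1 with 40.7% G and C and a reverse TGTTTAC, and 1 with 72.0% G and C, 40 CpG and no motif. The Ahsg window held AGATAA 4 bases before its start site. These matches describe letters in a window and not binding.

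Alb had a mean of at most 2.65 TPM in every group, although Afp next to it was the most abundant protein-coding transcript of YsEndo. Afp measured 24518, 23926, 27040 and 23871 TPM in the 4 YsEndo libraries, and Alb measured 0, 0.793, 0 and 0 TPM in the same libraries. Alb was listed at 0 in 28 of the 44 libraries, exceeded 1 TPM in 8 and reached at most 5.95 TPM, in 1 exSI library. The exMidgut libraries were the only group with Alb above 1 TPM throughout, at 1.75, 2.56, 4.38 and 1.90 TPM. Ahsg was listed at 0 in 33 libraries and exceeded 1 TPM in 2, with 13.4 TPM in exColon replicate 2 and 1.51 TPM in exMidgut replicate 3. The 6 widely used transcripts read as a control (Actb, Gapdh, Eef1a1, Rplp0, Tbp and Hprt) had no 0 in any library.

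At E6.5 only 4 of the 9 genes were present above 10 TPM. Afp, Ttr, Trf and Rbp4 were present in both extraembryonic endoderm groups and made up 99.9% of the TPM of the 9 genes in exEndo1 and 99.6% in exEndo2. Rgn, Clu and Fgl1 stayed between 0 and 6.39 TPM in all 8 exEndo libraries. All 8 visceral endoderm markers read to check the tissue labels had a mean above 1 TPM in exEndo1, exEndo2 and YsEndo. The same was found in exMidgut, emMidgut and exSI, so this count does not tell the tissues apart. In sum the markers reached 5305 to 7850 TPM in exEndo1, 5442 to 6790 TPM in exEndo2 and 7787 to 9379 TPM in YsEndo. That sum was 1070 to 1811 TPM in exMidgut, 1315 to 1951 TPM in exSI and 106 to 149 TPM in emMidgut.

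**Figure D1:**
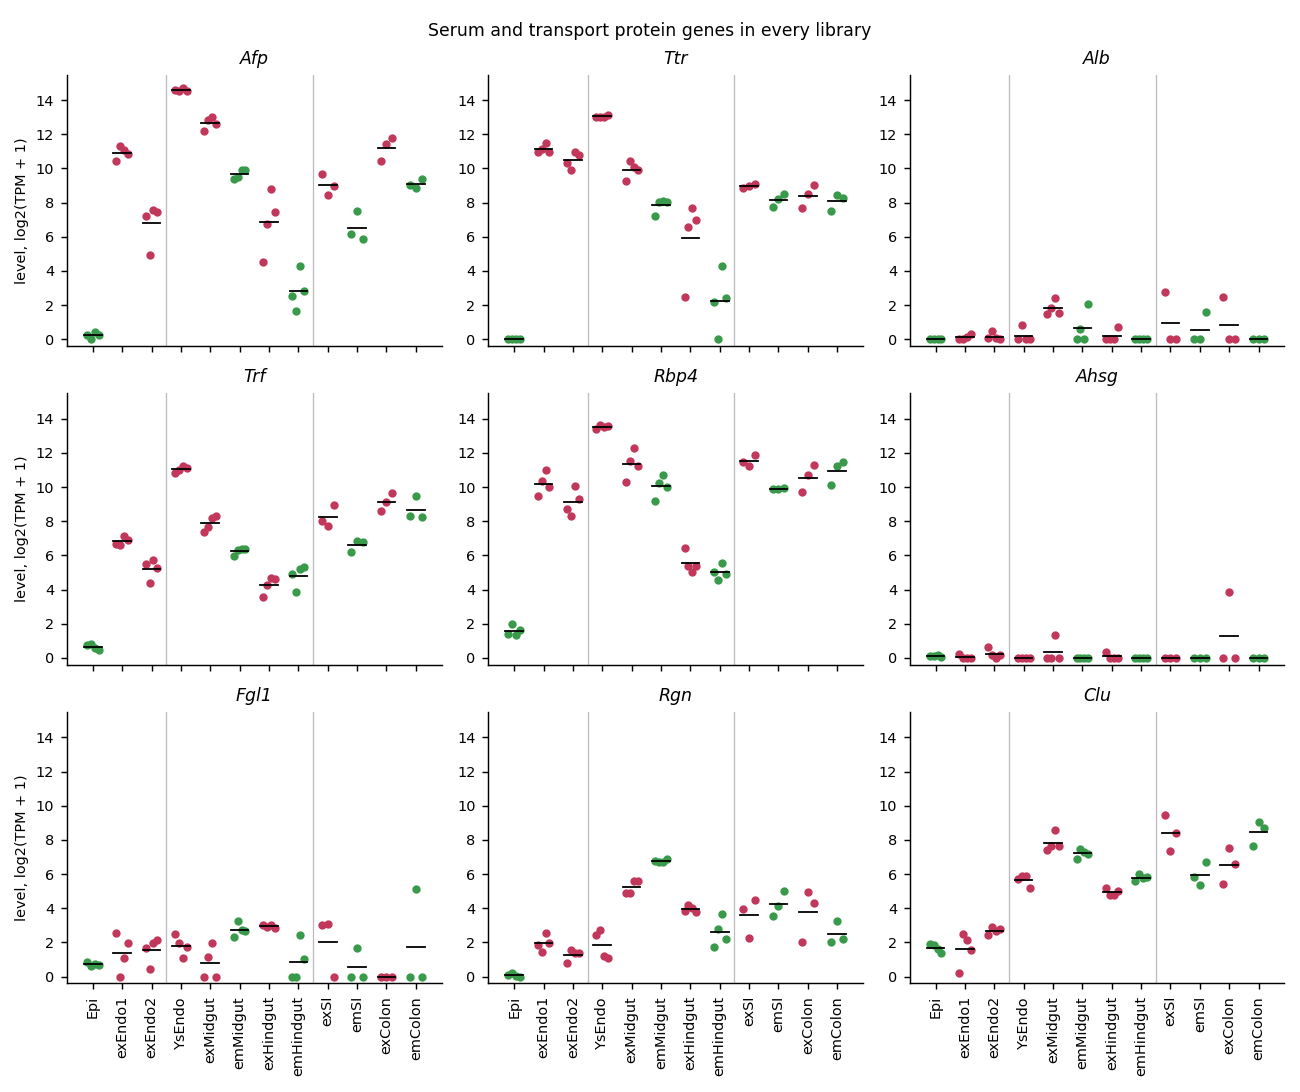
Level of each of the 9 genes, as log2(TPM + 1), in every library of the 12 groups. Each point is 1 library, red for mCherry+ and green for GFP+ cells, black bars are group means on this scale, and grey lines separate E6.5, E9.5 and E13.5. Afp, Ttr, Trf and Rbp4 are highest in the 4 YsEndo libraries, while Alb and Ahsg lie near 0 in most libraries, with Ahsg at 13.4 TPM in 1 exColon library and Alb at 5.95 TPM in 1 exSI library as the highest.

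The summed level of the 9 genes took 4.54 to 4.97% of all TPM in the YsEndo libraries, more than in any other group. It took 0.691 to 1.498% in exMidgut, 0.169 to 0.324% in emMidgut, 0.0179 to 0.0744% in exHindgut and 0.0106 to 0.0190% in emHindgut. At E6.5 it was 0.421 to 0.719% in exEndo1, 0.134 to 0.335% in exEndo2 and at most 0.000709% in Epi. At E13.5 it was 0.359 to 0.566% in exSI, 0.138 to 0.166% in emSI, 0.286 to 0.737% in exColon and 0.234 to 0.454% in emColon. In bulk samples such as these, fewer cells that make a transcript and less transcript per cell cannot be told apart.

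Tests compared log2(TPM + 1) between groups with limma and Benjamini-Hochberg adjustment over all genes tested, and differences below are on that scale, which understates the change of low genes. To be called, a gene needed a difference above 1 with an adjusted p below 0.05. A gene entered a test only if it exceeded 1 TPM in at least 4 of the libraries compared, or 3 at E13.5. Ahsg passed this filter in no comparison and Alb in 9 of 17, so counts below are of the members that could be tested.

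The first comparison asked which members separated the extraembryonic endoderm from the epiblast at E6.5. In the test of exEndo1 against Epi, 5 of the 6 members tested were called (33.4% of all genes were), and in that of exEndo2 against Epi 5 of 5 were (35.8% of all genes). Afp, Ttr, Trf and Rgn never exceeded 1 TPM in Epi and, where tested, passed the filter through the endoderm libraries alone, so these counts say little about the set. Afp measured 1397, 2569, 2184 and 1868 TPM in exEndo1, 146, 30.2, 192 and 177 TPM in exEndo2, and 0.19, 0, 0.32 and 0.21 TPM in Epi. Ttr measured 1997, 2218, 2822 and 2012 TPM in exEndo1 and 1286, 957, 2036 and 1747 TPM in exEndo2, and it was listed at 0 in all 4 Epi libraries. Neither gene had overlapping groups against Epi.

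Against Epi, Afp was higher by 10.7 ± 0.18 (SE, adjusted p = 1.05e-11) in exEndo1 and by 6.58 ± 0.47 (adjusted p = 1.96e-07) in exEndo2. Rbp4 was higher by 8.60 ± 0.28 and 7.50 ± 0.31, from 1.53 to 2.98 TPM in Epi. Trf was higher by 6.19 ± 0.17 and 4.56 ± 0.26, from 0.380 to 0.733 TPM in Epi. Rgn rose by 1.86 ± 0.22 in exEndo1, to 1.67 to 4.86 TPM. Clu rose by 1.01 ± 0.18 in exEndo2, to 4.38 to 6.39 TPM, and fell below the difference required when any of 4 single libraries was left out (Epi replicates 3 and 4, exEndo2 replicates 2 and 4, 0.91 to 0.98). It also fell below that difference with FPKM (0.82), median-ratio rescaling (0.94) and quantile normalization (0.996).

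Of the 9 genes, distal and proximal endoderm differed most in Afp. Afp was 14.7-fold higher in mean TPM in exEndo1 than in exEndo2, whereas Ttr was 1.502-fold higher. The difference was 4.13 ± 0.48 for Afp (adjusted p = 0.000282) and 1.63 ± 0.25 for Trf (adjusted p = 0.00175), and both sets of libraries lay apart. Trf measured 102, 95.2, 142 and 119 TPM in exEndo1 and 43.5, 19.6, 52.2 and 37.1 TPM in exEndo2. These were the 2 members called of 7 tested, where 6.41% of all genes were called.

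Libraries with the same number deviated together in exEndo1 and exEndo2, so a fit with the replicate number as a block was also made. It called 797 genes in place of 732 and 4 members, adding Rbp4 (1.10, adjusted p = 0.0045) and Clu, which was lower in exEndo1 (a difference of -1.09, adjusted p = 0.032). Without the block Rbp4 had an adjusted p of 0.0732 and Clu of 0.106. Rbp4 measured 707, 1319, 2028 and 1017 TPM in exEndo1 and 417, 319, 1060 and 643 TPM in exEndo2, so that each exEndo1 library was above the exEndo2 library of its own number while the groups overlapped. Rbp4 was also called without the block when exEndo1 replicate 1 (1.34) or exEndo2 replicate 3 (1.42) was left out. Ttr differed by 0.63 ± 0.21 (adjusted p = 0.0705) and Rgn by 0.67 ± 0.27 (adjusted p = 0.131), and neither passed.

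The ratio of Afp to Ttr within a library separated the 2 endoderm groups. It was 0.699 to 1.16 in exEndo1 and 0.0315 to 0.114 in exEndo2. The epiblast markers summed to 49.2 to 217 TPM in exEndo1 and 5.23 to 35.0 TPM in exEndo2, against 1892 to 2792 TPM in Epi. Among these markers Fgf5 averaged 98.1 TPM in exEndo1 and 121 TPM in Epi, while Pou5f1 averaged 12.7 and 1609 TPM. Afp was at most 0.32 TPM in Epi itself. Other marker lists were higher in exEndo2. Parietal endoderm markers summed to 410 to 525 TPM in exEndo1 and 1090 to 1707 TPM in exEndo2. Mesenchyme markers summed to 8.48 to 15.6 TPM in exEndo1 and 45.2 to 87.7 TPM in exEndo2. The part of other cells in the difference in Afp was not tested.

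YsEndo, the later derivative of extraembryonic endoderm outside the embryo, held Afp, Ttr, Trf and Rbp4 at their highest levels of all 12 groups, and each was apart from the group ranked next. Ttr measured 8315, 8440, 8228 and 9038 TPM, Rbp4 10743, 12830, 11944 and 12165 TPM, and Trf 1806, 2042, 2426 and 2243 TPM. By mean TPM Afp ranked 1, Rbp4 ranked 4, Ttr ranked 8 and Trf ranked 45 among protein-coding genes and transgenes in YsEndo. The YsEndo libraries lay close together, as for Ttr, which spanned 8228 to 9038 TPM.

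Against exEndo2, YsEndo had 5 of 7 members called, where 29.6% of all genes were. Afp was higher by 7.79 ± 0.43 (adjusted p = 2.09e-08), Trf by 5.84 ± 0.23, Rbp4 by 4.44 ± 0.27, Clu by 2.99 ± 0.18 and Ttr by 2.55 ± 0.18. The mean TPM of Afp was 182-fold higher and that of Trf 55.9-fold higher, while that of Ttr was 5.65-fold higher. Clu rose from 4.38 to 6.39 TPM to 52.5, 57.6, 57.4 and 36.0 TPM. Stage, dissection and sorting changed together with the tissue here. Rescaling the libraries by the median ratio moved the median of all genes by 0.37 in this comparison and by -0.51 in that of exGut against YsEndo, which is smaller than each called change of a member.

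In the E9.5 gut the extraembryonic cells were compared with embryonic cells of the same region. Afp and Ttr were higher in extraembryonic cells in both regions. For Rgn, Fgl1, Trf and Clu an interaction of origin with region was called, which held without each library in turn for Rgn alone. Of the pooled exGut libraries against the pooled emGut libraries, with both regions in 1 group, limma called 0 of 8 members (2.35% of all genes), and 2 members had an unadjusted p under 0.05. Those were Afp (3.52 ± 1.5) and Ttr (2.89 ± 1.3). With the region as a covariate, limma called both (adjusted p = 7.0e-06 and 0.0027).

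In the midgut Afp measured 4641, 7408, 8162 and 6142 TPM in exMidgut and 662, 735, 951 and 978 TPM in emMidgut. The lowest extraembryonic library was above the highest embryonic one, and the difference was 2.97 ± 0.16 (adjusted p = 3.30e-08). Ttr measured 614, 1370, 1093 and 944 TPM against 148, 264, 268 and 261 TPM, a difference of 2.07 ± 0.23 (adjusted p = 9.09e-05). Trf measured 166, 204, 296 and 319 TPM against 61.8, 77.6, 81.2 and 81.7 TPM, a difference of 1.65 ± 0.20 (adjusted p = 0.000194). Afp, Ttr and Trf had no overlap between the groups.

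Rgn went the other way in the midgut. It measured 29.1, 29.3, 48.0 and 46.7 TPM in exMidgut and 109, 106, 104 and 119 TPM in emMidgut, its highest level in any group. Every embryonic library was above every extraembryonic one, and the difference was -1.53 ± 0.20 (adjusted p = 0.00041). In all, 5 of 8 members tested were called in the midgut, where 2.58% of all genes were. The fifth was Rbp4, at 1285, 3012, 4991 and 2425 TPM against 586, 1231, 1671 and 1024 TPM. The Rbp4 groups overlapped, and its difference of 1.31 ± 0.34 had an adjusted p of 0.0498, which lay above 0.05 when any library but exMidgut replicate 1 and emMidgut replicate 3 was left out (0.082 to 0.14).

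Clu in the midgut differed by 0.62 ± 0.21 (adjusted p = 0.140), with 172 to 382 TPM in exMidgut and 119 to 174 TPM in emMidgut. Fgl1 measured 0, 1.25, 2.85 and 0 TPM in exMidgut and 4.06, 8.52, 5.72 and 5.33 TPM in emMidgut, and its difference of -1.97 ± 0.52 had an adjusted p of 0.0550. It was called, at -2.36, without exMidgut replicate 3. Pou5f1, a pluripotency and germ cell gene, measured 93.6, 0, 131 and 0 TPM in emMidgut replicates 1 to 4, and its part in these results was not tested. Replicate 1 was the lowest emMidgut library for Afp, Ttr, Trf, Rbp4 and Clu, and replicate 3 was the lowest for none of these.

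In the hindgut Afp again separated the libraries by origin, at lower levels than in the midgut. Afp measured 22.1, 109, 437 and 176 TPM in exHindgut and 4.83, 2.13, 18.9 and 6.05 TPM in emHindgut. The groups did not overlap, although the extraembryonic libraries spanned a wide range, and the difference was 4.06 ± 0.70 (adjusted p = 0.00362). Ttr measured 4.49, 95.9, 201 and 125 TPM against 3.49, 0, 18.9 and 4.28 TPM, with the first exHindgut library inside the embryonic range. The difference for Ttr was 3.70 ± 0.97 (adjusted p = 0.0404).

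Afp and Ttr had the same order of libraries within exHindgut, with replicate 1 lowest and replicate 3 highest for both, and replicate 3 was also highest for both in emHindgut. In exHindgut Rbp4 did not follow them, since it measured 85.1, 40.4, 31.5 and 41.6 TPM with replicate 1 highest. In emHindgut Rbp4 measured 31.4, 22.6, 45.9 and 28.7 TPM, a difference of 0.55 ± 0.28 (adjusted p = 0.305).

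Fgl1 was the third member called of 7 tested in the hindgut, where 3.07% of all genes were called. It measured 7.06, 6.52, 7.15 and 6.25 TPM in exHindgut and 0, 0, 4.51 and 1.05 TPM in emHindgut, a difference of 2.08 ± 0.51 (adjusted p = 0.0278). The call of Ttr was lost when exHindgut replicates 2, 3 or 4 or emHindgut replicates 1, 2 or 4 were left out (adjusted p of 0.086 to 0.12). That of Fgl1 was lost without any single library but emHindgut replicate 3 (0.056 to 0.087). Afp was called without each library in turn, but none of the 3 was called when genes of low value were kept in the test (adjusted p = 0.079 for Afp).

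Rgn in the hindgut measured 13.1, 17.6, 15.2 and 12.5 TPM in exHindgut and 2.39, 5.95, 11.6 and 3.55 TPM in emHindgut. The groups were apart and the difference of 1.35 ± 0.38 had an adjusted p of 0.0548, and of 0.017 without emHindgut replicate 3 (a difference of 1.70). Clu was below its embryonic counterpart (-0.85 ± 0.17, adjusted p = 0.00952), under the difference of 1 required. It measured 36.0, 26.3, 27.0 and 31.6 TPM in exHindgut and 47.8, 62.2, 54.9 and 55.0 TPM in emHindgut, without overlap. Trf differed by -0.54 ± 0.33 (adjusted p = 0.405), with 10.9 to 24.4 TPM in exHindgut and 13.47 to 38.3 TPM in emHindgut.

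Whether the effect of origin differed between midgut and hindgut was tested as an interaction over the 16 gut libraries, with no threshold on its size. In all, 4 of 8 members were called, where 0.0965% of all genes (13 of 13473) were. Rgn had an interaction of -2.88 ± 0.43 (adjusted p = 0.00651) and Fgl1 of -4.05 ± 0.73 (adjusted p = 0.0316), with estimates below 0 in midgut and above 0 in hindgut, of which Rgn passed in midgut alone and Fgl1 in hindgut alone. Trf had an interaction of 2.19 ± 0.41 (adjusted p = 0.0379) and Clu of 1.46 ± 0.28 (adjusted p = 0.0379), with estimates above 0 in midgut and below 0 in hindgut. Trf did not pass in hindgut, and Clu did not pass in midgut and was under the difference required in hindgut. For Afp (-1.09 ± 0.83, adjusted p = 0.828), Ttr (-1.63 ± 1.2, adjusted p = 0.814) and Rbp4 (0.76 ± 0.50, adjusted p = 0.789) no difference between regions was detectable, with a 95% interval of -2.81 to 0.64 for Afp.

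Rgn kept its interaction call without each library in turn. Trf, Fgl1 and Clu each lost theirs when most single libraries were left out (adjusted p up to 0.10), and with a pseudocount of 0.1 no member was called (adjusted p of 0.057 to 0.16).

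**Figure D2:**
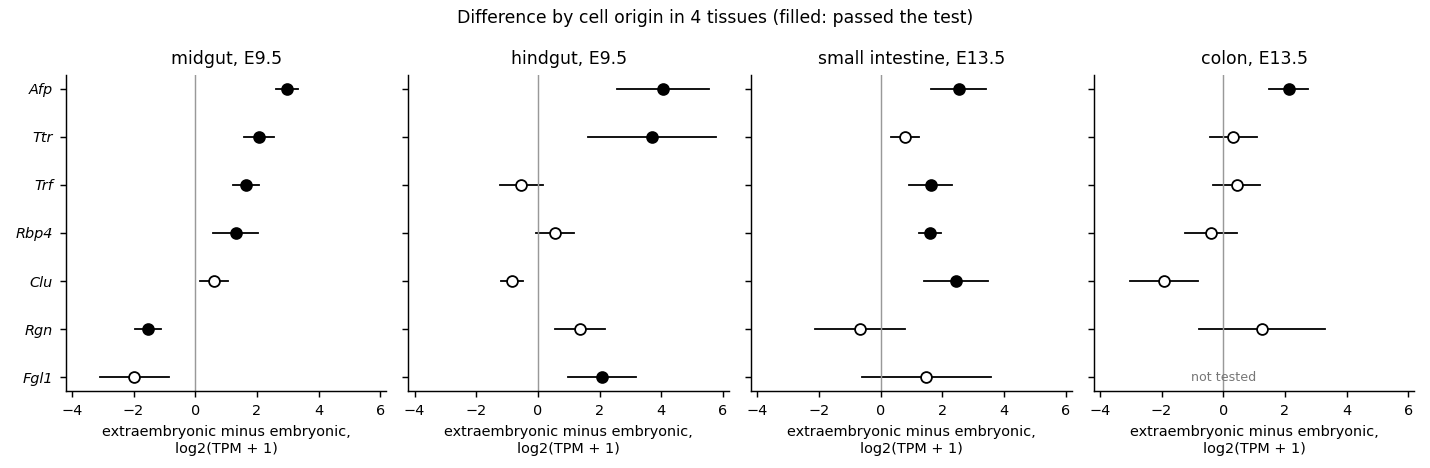
Difference between extraembryonic and embryonic cells of the same tissue, on the log2(TPM + 1) scale, for 7 members in 4 tissues. Points are limma estimates with 95% intervals, and filled points were called. Afp is to the right of 0 in all 4 tissues, while Trf, Rbp4, Rgn, Fgl1 and Clu lie on different sides of 0 in different tissues. The E13.5 extraembryonic cells are Trp53 KO.

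The low mCherry signal of the embryonic E9.5 cells was also read against their transcripts. Mean mCherry TPM in emMidgut was 0.0181% of that in exMidgut, and in emHindgut 0.0338% of that in exHindgut. The extraembryonic marker Rhox5 in emMidgut was 1.11% of its exMidgut mean. Afp in emMidgut was 12.6% of its exMidgut mean, Ttr 23.4%, Trf 30.7% and Rbp4 38.5%. In the hindgut Afp was 4.29% and Ttr 6.25%.

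Yolk sac genes were set beside the extraembryonic hindgut values. Cubn, the intestinal and yolk sac uptake receptor, averaged 670 TPM in YsEndo and was listed at 0 in all 4 exHindgut libraries. Apoa4 averaged 2606 TPM in YsEndo and measured 0, 0, 0 and 1.72 TPM in exHindgut. Apob measured 3.05, 3.90, 5.65 and 6.04 TPM and Amn 0.167, 1.94, 3.35 and 4.43 TPM in exHindgut, both lowest in replicate 1 as Afp and Ttr were. In YsEndo Apob measured 1072 to 1395 TPM and Amn 708 to 1551 TPM. In exMidgut Cubn measured 8.58, 29.8, 39.6 and 22.0 TPM and Apoa4 14.3, 86.5, 117 and 31.0 TPM, highest in replicate 3, while Apob (68.3, 181, 171 and 125 TPM) and Amn (21.4, 116, 85.4 and 46.7 TPM) were highest in replicate 2. All 4 were lowest in replicate 1, as were Afp, Ttr, Trf, Rbp4 and Clu there, and their part in the members' values was not tested.

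Along the gut the members tested were higher in midgut than in hindgut in both lineages, with Fgl1 as the exception in extraembryonic cells. In exMidgut against exHindgut 8 of 8 members tested were called (11.3% of all genes), and in emMidgut against emHindgut 7 of 7 were (13.9% of all genes). Alb is among the 8 only because its exMidgut libraries exceeded 1 TPM. Rbp4 was higher in midgut by 5.80 ± 0.34 in extraembryonic and 5.04 ± 0.26 in embryonic cells, which is 59.0-fold and 35.1-fold in mean TPM. Afp was higher by 5.77 ± 0.60 and 6.85 ± 0.39, and Ttr by 4.00 ± 0.80 and 5.62 ± 0.61.

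Trf was higher in midgut by 3.62 ± 0.26 in extraembryonic and by 1.43 ± 0.26 in embryonic cells, and Clu by 2.88 ± 0.22 and 1.42 ± 0.15. Rgn showed the opposite proportion, with 1.30 ± 0.26 in extraembryonic and 4.18 ± 0.32 in embryonic cells. Fgl1 was lower in extraembryonic midgut than hindgut (-2.17 ± 0.49) and higher in embryonic midgut (1.88 ± 0.52), the latter lost without emHindgut replicate 1 or 2 (adjusted p of 0.052 and 0.055). Alb was called in extraembryonic cells only for its 1.75 to 4.38 TPM in exMidgut (1.63 ± 0.46), and not without exMidgut replicates 2 or 3 or exHindgut replicates 1, 2 or 3 (adjusted p of 0.055 to 0.078).

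The extraembryonic gut was lower than YsEndo in Afp, Ttr, Trf and Rbp4 and higher in Rgn. These were the 5 of 8 members called, where 42.4% of all genes were, and Afp was not called after quantile normalization (-3.55, adjusted p = 0.063). The differences were -4.83 ± 1.4 for Afp, -5.13 ± 1.1 for Ttr, -4.96 ± 0.85 for Trf, -5.08 ± 1.4 for Rbp4 and 2.74 ± 0.43 for Rgn. The standard errors are large because midgut and hindgut libraries form 1 group here. By region, mean Afp in YsEndo was 3.77-fold its exMidgut level, Rbp4 4.07-fold, Ttr 8.46-fold and Trf 8.66-fold, and Rgn was 12.3-fold higher in exMidgut than in YsEndo.

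Against the distal endoderm exEndo1, 3 of 8 members were called in the extraembryonic gut, where 30.3% of all genes were. As for YsEndo against exEndo2, stage, dissection and sorting changed together with the tissue. Clu was higher by 4.80 ± 0.74 (adjusted p = 0.000102) and Rgn by 2.66 ± 0.38 (adjusted p = 5.85e-05), while Ttr was lower (-3.21 ± 1.1, adjusted p = 0.0296). In Clu, 0.143 to 4.55 TPM in exEndo1 stood against 26.3 to 382 TPM in the gut. The gut group pools regions that differ widely, with a mean Ttr of 1005 TPM in exMidgut and 107 TPM in exHindgut against 2262 TPM in exEndo1. In exMidgut alone, Afp, Trf and Rbp4 stood 3.29-, 2.15- and 2.31-fold above exEndo1 by their means, which was not tested. The call of Ttr was lost when any exEndo1 library was left out (0.060 to 0.073).

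At E13.5 Afp was again higher in the extraembryonic cells of both organs. In the fit over both organs it was the 1 member called of 8 tested (0.625% of all genes), with a difference of 2.33 ± 0.28 (adjusted p = 0.000159). Afp measured 832, 345 and 512 TPM in exSI and 71.8, 180 and 56.7 TPM in emSI. It measured 1375, 2761 and 3462 TPM in exColon and 517, 465 and 661 TPM in emColon, and neither pair of groups overlapped. Trf differed by 1.03 ± 0.29 (adjusted p = 0.142) and was called when emColon replicate 2 was left out (1.28, adjusted p = 0.023). Ttr differed by 0.57 ± 0.22 (adjusted p = 0.329) and Rbp4 by 0.61 ± 0.34 (adjusted p = 0.528).

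In the small intestine 4 of 7 members were called, where 0.738% of all genes were. Rbp4 measured 2827, 2367 and 3753 TPM in exSI and 945, 946 and 984 TPM in emSI, a difference of 1.61 ± 0.16 (adjusted p = 0.000455). Clu measured 703, 162 and 339 TPM against 56.8, 40.3 and 102 TPM (2.44 ± 0.47, adjusted p = 0.0381). Trf measured 260, 212 and 504 TPM against 73.7, 114 and 111 TPM (1.62 ± 0.32, adjusted p = 0.0404). Afp differed by 2.53 ± 0.41 (adjusted p = 0.0149).

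All exSI libraries were above all emSI libraries for these 4 genes and for Ttr, which measured 472, 494 and 534 TPM against 217, 294 and 368 TPM and did not pass (0.80 ± 0.21, adjusted p = 0.144). Rbp4 was called without each library in turn, and none of the 4 was called when genes of low value were kept in the test (adjusted p = 0.091 for Rbp4). Trf lost its call without exSI replicate 1 or 3 or any emSI library (0.087 to 0.19), Clu without exSI replicate 1 or 3 or emSI replicate 1 or 2 (0.13 to 0.17), and Afp without exSI replicate 1 or 3 or emSI replicate 1 or 3 (0.053 to 0.10). Col3a1, a collagen gene of mesenchyme, measured 203, 43.9 and 0 TPM in emSI, and its part in these results was not tested.

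In the colon Afp was the 1 member called of 6 tested (2.12 ± 0.29, adjusted p = 0.0109), where 0.269% of all genes were called. Its call was lost without exColon replicate 2 or 3 or emColon replicate 2 (0.053 to 0.10), with genes of low value kept in the test (0.30), with a pseudocount of 0.1 (0.052) and without the trend (0.24). Clu measured 41.9, 187 and 97.1 TPM in exColon and 196, 524 and 421 TPM in emColon, so that the extraembryonic libraries were below the embryonic ones. The difference of -1.93 ± 0.50 did not pass (adjusted p = 0.220), but was called in a fit with the replicate number as a block. Whether the numbers pair these libraries is not known. Rbp4 differed by -0.38 ± 0.39 (adjusted p = 0.780), Ttr by 0.33 ± 0.35 (adjusted p = 0.791) and Trf by 0.44 ± 0.35 (adjusted p = 0.713).

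The opposite directions of Clu in the 2 organs led to an interaction test that was added after these values had been seen. Clu had an interaction of 4.36 ± 0.80 (unadjusted p = 5.84e-05, adjusted p = 0.159) and Rbp4 of 1.99 ± 0.49 (unadjusted p = 0.000881, adjusted p = 0.244). Limma called 0 of 8 members, where 0.0160% of all genes (2 of 12483) were called, and 3 members had an unadjusted p under 0.05. In a fit over all 44 libraries both were called, as were 1409 of all genes against the 2 above.

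Between the organs, Afp and Trf were higher in colon than in small intestine over both origins. The difference was -2.37 ± 0.28 for Afp (adjusted p = 0.000175) and -1.47 ± 0.29 for Trf (adjusted p = 0.0136), small intestine minus colon, and these were 2 of 8 members called, where 1.30% of all genes were. Trf measured 390, 559 and 791 TPM in exColon and 312, 718 and 305 TPM in emColon. The libraries of both genes overlapped between the organs over both origins. Neither gene was called when origin was left out of the fit (adjusted p = 0.088 and 0.081).

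The ratio of Afp to Ttr within a library separated extraembryonic from embryonic libraries in 3 of the 4 gut tissues. It was 2.64 to 3.29 in YsEndo, 5.41 to 7.55 in exMidgut, 2.78 to 4.48 in emMidgut, 0.699 to 1.76 in exSI, 0.154 to 0.612 in emSI, 6.66 to 7.58 in exColon and 1.35 to 2.80 in emColon. In each of these 3 tissues all extraembryonic libraries had a higher ratio than all embryonic ones. In small intestine and colon the extraembryonic cells were also Trp53 KO, so lineage and genotype cannot be told apart there. In the hindgut it was 1.13 to 4.93 in exHindgut and 1.00 to 1.42 in the 3 emHindgut libraries with Ttr above 0. Rbp4 over Ttr was 1.29 to 1.52 in YsEndo, 2.09 to 4.57 in exMidgut, 3.92 to 6.24 in emMidgut, 4.79 to 7.03 in exSI, 2.67 to 4.35 in emSI, 4.09 to 4.81 in exColon and 6.09 to 9.29 in emColon. Extraembryonic KO and embryonic WT libraries were thus in opposite order in small intestine and colon, with no overlap in either.

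**Figure D3:**
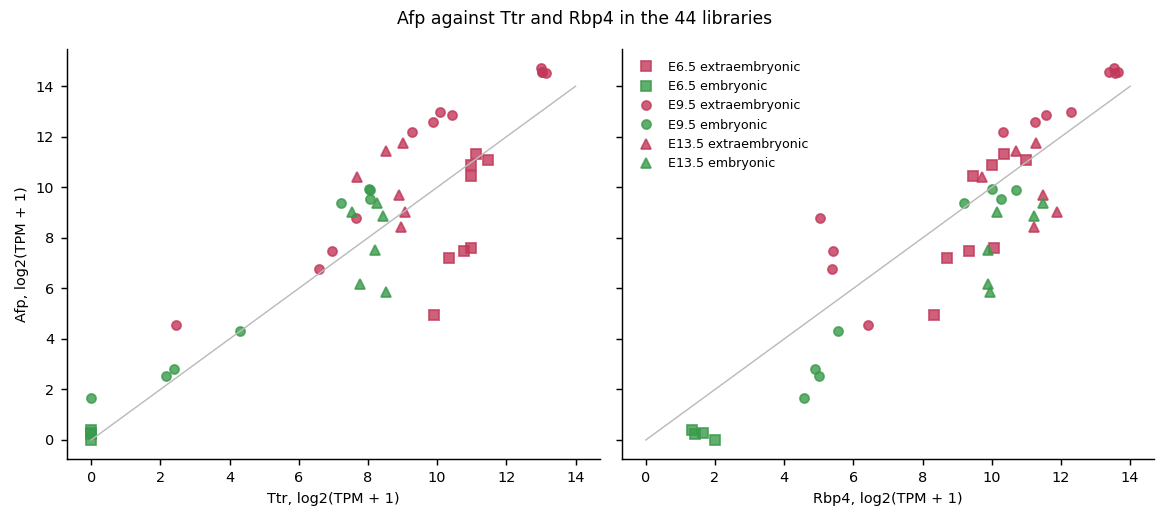
Afp against Ttr (left) and against Rbp4 (right) in the 44 libraries, both as log2(TPM + 1). Each point is 1 library, with the stage as the shape and the lineage as the colour, and the grey line marks equal levels. The exEndo2 libraries lie well below the line for Ttr, with Afp over Ttr at 0.0315 to 0.114. The exMidgut and exColon libraries lie above the line for Ttr, as do those of YsEndo, exHindgut, emMidgut and emColon.

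The other plasma protein genes were read as a list of 21 (fibrinogen chains, clotting factors, protease inhibitors and carriers). Against Epi, 10 of the 21 could be tested, and these were called higher in each of exEndo1 and exEndo2, where 33.4% and 35.8% of all genes were called. Of the 10, 9 had a mean of at most 1 TPM in Epi and so passed the filter mainly through the endoderm libraries, which favours this direction. They included the fibrinogen chain gene Fgb (48.2 TPM in exEndo1, listed at 0 in Epi) and prothrombin F2 (5.10 ± 0.17 in exEndo1 and 5.09 ± 0.16 in exEndo2). Between exEndo1 and exEndo2, Ambp (alpha-1-microglobulin and bikunin precursor) was higher in exEndo1 by 1.77 ± 0.33 and Serpinf2 (alpha-2-antiplasmin) was lower (-1.29 ± 0.22), of 11 tested (6.41% of all genes were called). From exEndo2 to YsEndo, 15 of 16 were called higher (29.6% of all genes were called), 5 of the 16 having a mean of at most 1 TPM in exEndo2 (list median 2.95, all genes -0.41), led by Kng1 (kininogen, 5.96 ± 0.19) and the fibrinogen chain gene Fga (5.34 ± 0.16).

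In the midgut 5 of 16 were called higher in extraembryonic cells and none lower (list median 0.91, all genes -0.036, 2.58% of them called). The fifth was Ambp, named after its values were seen. The fibrinogen chains were Fgg at 88.6 against 11.2 TPM (2.89 ± 0.33), Fgb at 62.6 against 8.80 TPM (2.72 ± 0.30) and Fga at 24.3 against 2.74 TPM (2.60 ± 0.51), and the heme carrier hemopexin (Hpx) stood at 170 against 30.7 TPM (2.29 ± 0.33). In the hindgut only Fgg was called of 8 tested (1.90 ± 0.49), where 3.07% of all genes were, and not without exHindgut replicate 2 or 4 or emHindgut replicate 1 or 2. Limma called none of 17 for the interaction, where 3 had an unadjusted p under 0.05. Midgut was above hindgut for 14 of 15 in extraembryonic and 11 of 12 in embryonic cells, but 7 of the 15 and 5 of the 12 had a mean of at most 1 TPM in hindgut and entered the test mainly through midgut, which favours this direction, and 11.3% and 13.9% of all genes were called. Hpx was higher by 5.65 ± 0.38 and 4.41 ± 0.40 and Serpinf2 by 5.19 ± 0.36 and 5.32 ± 0.41.

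Against YsEndo, 12 of 18 plasma protein genes were lower and 3 higher in the extraembryonic gut (list median -3.50, all genes 0.59, 42.4% of them called), with Fga (-6.26 ± 1.0) and the clotting factor F10 (-5.49 ± 0.71). Of the 18, 3 had a mean of at most 1 TPM in the lower group. Against exEndo1, 6 of 16 were higher and 2 lower (list median 0.21, all genes 0.13, 30.3% of them called), with the adhesion protein vitronectin (Vtn) at 176 against 0.880 TPM (5.42 ± 0.97) and Gc, the vitamin D carrier, lower (-3.28 ± 0.57). Of the 16, 6 had a mean of at most 1 TPM in the lower group, Vtn and Gc among them, and entered the test mainly through the other. In the pooled test of exGut against emGut limma called none of 17, and 1 had an unadjusted p under 0.05. At E13.5, 3 of 12 were higher in extraembryonic cells, Serpinf1 (2.15 ± 0.33), Ambp (1.67 ± 0.17) and Serpinf2 (1.51 ± 0.30), and none was lower (list median 1.71, all genes 0.11, 0.625% of them called). Ambp was called in each organ, at 1611 against 432 TPM in small intestine and 997 against 363 TPM in colon, next to Serpinf1 in small intestine (2.73 ± 0.49) and Itih2 in colon (4.91 ± 0.83). Itih2, at 44.2 against 0.788 TPM, entered the test mainly through exColon. A mean of at most 1 TPM in the lower group was found for 3 of the 12 over both organs, 1 of 9 in small intestine and 1 of 8 in colon. The 2 calls in colon fell to 0 without exColon replicate 2 or 3 or emColon replicate 1 or 2 and to 1 without exColon replicate 1, and the 2 in small intestine fell to 1 without exSI replicate 1 or 3 or emSI replicate 2. Between the organs 1 of 12 was higher in small intestine and 3 were lower, where 1.30% of all genes were called. Fgb was lower (-3.66 ± 0.69), while Gc stood at 23.5 TPM in small intestine and was listed at 0 in colon. Of the 12, 4 had a mean of at most 1 TPM in the lower organ, Gc and Fgb (0.699 TPM in small intestine) among them, and entered the test mainly through the other.

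**Figure D4:**
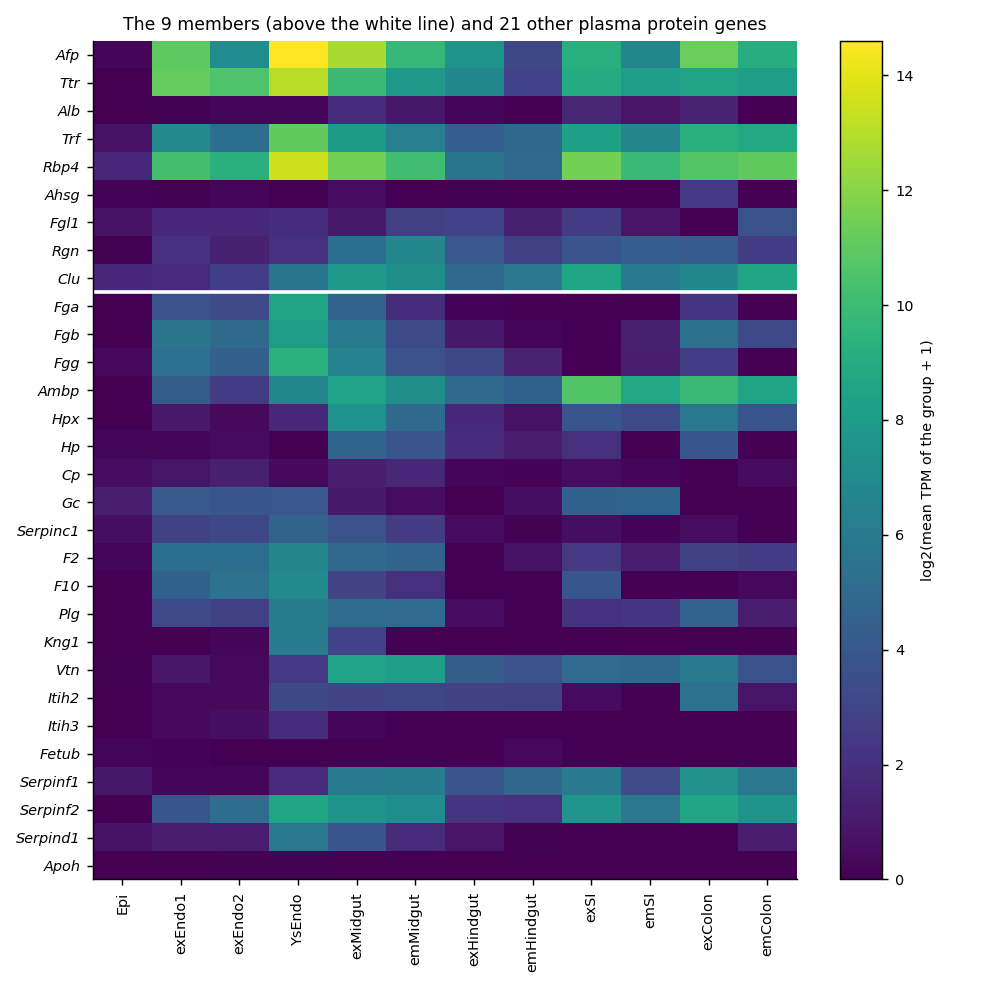
Mean level of the 9 members (above the white line) and of the 21 other plasma protein genes in the 12 groups, as the log2 of the group's mean TPM + 1. Epi is dark throughout, the fibrinogen genes Fga, Fgb and Fgg are brightest in YsEndo, and Vtn and Hpx are brighter in the gut groups exMidgut and emMidgut than in YsEndo.

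Transcription factors known to drive liver and visceral endoderm genes were read as a list of 14. In exEndo1 8 of 10 and in exEndo2 6 of 9 were called higher than in Epi, among them Hnf4a (5.78 ± 0.17 and 5.84 ± 0.16) and Gata4 (5.37 ± 0.37 and 5.71 ± 0.35). The 1 called lower in exEndo2 was Zhx2, a repressor of Afp in adult liver, named for this reason after its values were seen. Zhx2 was low throughout E6.5, at means of 0.349 TPM in exEndo2, 1.13 TPM in exEndo1 and 1.86 TPM in Epi. Its part in the level of Afp was not tested. Of all genes 33.4% and 35.8% were called, and 4 of the 10 and 4 of the 9, Hnf4a among them, had a mean of at most 1 TPM in the lower group. Foxa1, a pioneer factor of endoderm, was the 1 factor of 9 called between exEndo1 and exEndo2 (6.41% of all genes were called), at 12.4 against 0.187 TPM (3.45 ± 0.27), and it entered the test mainly through exEndo1. Limma called none between extraembryonic and embryonic cells in midgut (of 13), hindgut (of 8), small intestine (of 13) or colon (of 13), and 2, 0, 0 and 2 had an unadjusted p under 0.05. The list medians there were 0.34, 0.15, 0.39 and 0.58, against -0.036, -0.020, -0.0044 and 0.23 for all genes. Midgut was above hindgut for 10 of 13 in extraembryonic and 8 of 12 in embryonic cells, with Nr5a2 higher by 3.96 ± 0.39 and 3.36 ± 0.31, where 11.3% and 13.9% of all genes were called. Of these 13 and 12, 4 each had a mean of at most 1 TPM in hindgut and entered the test mainly through midgut.

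From exEndo2 to YsEndo 3 of 10 factors were higher, with the bile acid receptor Nr1h4 at 3.18 ± 0.25, and 4 were lower, with Gata6 at -2.85 ± 0.22 and Gata4 at -2.31 ± 0.11, where 29.6% of all genes were called. Of the 10, 3 had a mean of at most 1 TPM in the lower group, among them Nr1h4 (0.434 TPM in exEndo2), which entered the test mainly through YsEndo. Between the extraembryonic gut and YsEndo 3 of 14 were higher and 3 lower, a share close to the 42.4% of all genes called there, with Foxa1 higher by 4.54 ± 0.51 and Hnf4a lower (-3.87 ± 0.92). Against exEndo1 5 of 13 were higher and 3 lower in the extraembryonic gut, where 30.3% of all genes were called. Of the 13, 3 had a mean of at most 1 TPM in the lower group and passed the filter mainly through the other, as did 3 of the 14 against YsEndo. Gata4 was the 1 factor of 14 called between small intestine and colon (4.81 ± 0.58), where 1.30% of all genes were called. Onecut1, a factor of early liver and pancreas, stood at 18.8 TPM in exMidgut and 12.2 TPM in emMidgut and was listed at 0 in both hindgut groups.

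Receptors and cellular partners of the members were a list of 15. Against Epi, 7 of 11 were higher and 3 lower in exEndo1, and 6 of 11 higher and 3 lower in exEndo2, where 33.4% and 35.8% of all genes were called, with Amn higher by 9.07 ± 0.21 and 9.42 ± 0.17. Of the 11, 4 and 5 had a mean of at most 1 TPM in the lower group, Amn among them, and passed the filter mainly through the other. In the midgut 3 of 13 were higher in extraembryonic cells and none lower, the uptake receptor genes Amn (67.3 against 1.71 TPM, 4.62 ± 0.54) and Cubn (1.94 ± 0.43) and the albumin and IgG receptor Fcgrt (1.46 ± 0.29). Of all genes 2.58% were called there, and 3 of the 13 had a mean of at most 1 TPM in the lower group. Limma called none of 11 in the hindgut and none of 11 in the colon, where 2 and 4 had an unadjusted p under 0.05, and Amn (3.25 ± 0.33) and the retinol binding protein gene Rbp2 (2.67 ± 0.42) were the 2 of 11 in the small intestine, where 0.738% of all genes were called. These 2 calls fell to 1 without exSI replicate 1, 2 or 3. YsEndo was above exEndo2 in 4 of 9 and below it in the uptake receptor gene Lrp2 alone (named after its values were seen), where 29.6% of all genes were called, and Rbp2 (4.93 ± 0.18), at 0.080 TPM in exEndo2, entered the test mainly through YsEndo. The extraembryonic gut was below YsEndo in 6 of 12, with Cubn (-7.13 ± 1.1) and Amn (-6.54 ± 1.1), and above it in 4 (list median -1.74, all genes 0.59, 42.4% of them called). Of these 12, 3 had a mean of at most 1 TPM in the lower group and passed the filter mainly through the other. In midgut against hindgut 6 of 12 were higher in extraembryonic cells and Stra6, the receptor that takes up retinol from Rbp4, was lower, at 0.832 against 20.7 TPM (-3.66 ± 0.40). In embryonic cells 4 of 13 were higher and Stra6 was lower (-1.47 ± 0.43). Of all genes 11.3% and 13.9% were called, and 3 of the 12 and 3 of the 13 had a mean of at most 1 TPM in the lower group. Between exEndo1 and exEndo2, 2 of 9 were higher and 1 lower (6.41% of all genes were called). In exGut 1 of 13 was lower than in emGut (2.35%), a call lost without most single libraries. Against exEndo1, 2 of 12 were higher and 5 lower in exGut (30.3%), with 2 of the 12 at such a low mean. At E13.5, 2 of 13 were higher over both organs (0.625%) and 1 of 13 was higher in small intestine than colon (1.30%), each with 2 of the 13 at such a mean.

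Likeness was measured as the Pearson correlation of log2(mean TPM + 1) over the 12 groups, among 10906 genes with a group mean of at least 10 TPM, as a description over groups that share libraries and scaling. The genes closest to the mean of the 9 members were Sdsl (0.966), Il10rb (0.964), Tmem9 (0.953), Abhd16a (0.95) and Acot2 (0.948). Ttr was closest to Gipc2 (0.987), Rbp4 to Net1 (0.981), Clu to Sil1 (0.964), Rgn to Vtn (0.954), Trf to Net1 (0.952), Afp to Prss8 (0.939) and Alb to Onecut1 (0.942). The closest to Ahsg, Anxa8 (0.935), shares with it a level in exColon, and Fgl1 had no gene above 0.814 (Brat1). The closest genes depended on the measure, since by Spearman correlation Clu alone kept its closest gene (Ttr was then closest to Apob, at 0.993), and Sdsl alone stayed among the 5 closest to the mean.

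Read over all 12 groups, the carriers fell into different orders. For Afp the order after YsEndo was exMidgut, exColon, exEndo1, emMidgut, exSI, emColon, exHindgut, exEndo2, emSI, emHindgut and Epi, and exColon and exEndo1, emMidgut and exSI, exSI and emColon, exHindgut and exEndo2, and exEndo2 and emSI overlapped. For Ttr exEndo1 (2262 ± 387 TPM, SD, n = 4) and exEndo2 (1506 ± 479 TPM) came next after YsEndo, ahead of exMidgut (1005 ± 315 TPM), each overlapping the next. For Rbp4 exSI and exMidgut came next, at means of 2982 and 2928 TPM that overlapped. For Trf exColon and emColon came next, at means of 580 and 445 TPM that overlapped as well.

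Rgn and Clu had their highest levels inside the embryo and not in YsEndo. Rgn was highest in emMidgut (109 ± 6.76 TPM, SD, n = 4) and averaged 3.11 TPM in YsEndo. Clu was highest in exSI (401 TPM), emColon (380 TPM) and exMidgut (240 TPM) and averaged 50.9 TPM in YsEndo. Fgl1 exceeded 10 TPM in 1 of the 44 libraries, emColon replicate 2 at 34.0 TPM, next to 0 in the other 2 emColon libraries.

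Depth was 3.53 to 12.04 Gb of aligned sequence per library, as worked out from the deposited coverage, and 10382 to 13596 genes per library exceeded 1 TPM. The number of molecules behind a level of a few TPM is not known from these files. Blood markers summed to at most 10.99 TPM, in exColon replicate 2, and endothelial markers to at most 4.89 TPM in any library.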

How the data were processed

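Small pools of cells were sequenced from poly(A) cDNA. Per the labels and the study's methods, cutadapt 4.1 was used for trimming, STAR 2.7.9a for alignment to mm10 plus the GFP and mCherry transgenes, and StringTie 2.0.6 for quantifying GENCODE VM23 genes. The deposited tables used here give the authors' coverage, FPKM and TPM per gene, so the number of reads behind a value is unknown. TPM of rows with the same gene ID were summed here. Aligned bases per library were read from the authors' coverage divided by FPKM.

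The 9 members and all gene lists were chosen with earlier results of these data known. Members were all named, and list genes were named where called, at most the 4 with the largest difference per list and comparison, except where the text says that a gene was named after its values were seen. One gene of the list of receptors and partners is not reported here by name. Gene types came from GENCODE vM21 (32235 of 32287 IDs matched), which left 21704 protein-coding genes and transgenes. Genes on chrY were left out of tests.

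Groups followed the labels. limma 3.58.1 (R 4.3.3, eBayes with trend) was fitted to log2(TPM + 1), with Benjamini-Hochberg adjustment over all genes tested, and was tested on simulated data. A count model was not used, since the values are not counts. The E13.5 interaction of origin and organ was added after values were seen. Alternatives were a pseudocount of 0.1, FPKM, no filter, 2 rescalings, no trend, all 44 libraries in 1 fit, a replicate block, changed covariates and leaving out each library. Same-numbered libraries deviated together between exEndo1 and exEndo2 (correlations of deviations from group means 0.176 to 0.394, over 0.1 in 4 of 4 pairs). In no other comparison was every pair over 0.1, and the labels do not say whether libraries of the same number share embryos. Python 3.11.15, pandas 2.3.3, SciPy 1.17.1 and Matplotlib 3.10.9 were used.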

Additional observations from a re-analysis of the deposited data

Results flagged for a closer look

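Within groups of 4 libraries, 3 of 54 sets of a member's log2(TPM + 1) values (sets with a library above 1 TPM) held a library far from the others, where chance gives about 1 in 20. Afp in exEndo2 replicate 2 was 30.2 TPM, below 146 to 192 TPM in the other 3 libraries. Ttr in emMidgut replicate 1 was 148 TPM, below 261 to 268 TPM. Ahsg in exMidgut replicate 3 was 1.51 TPM, with 0 in the other 3. A set with 1 library above 0 and the rest at 0 is flagged whatever its value, so the rate of 1 in 20 does not apply to it. The groups of 3 at E13.5 were not tested in this way.

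The effect of origin differed between midgut and hindgut by the interaction test for 4 members, at -4.05 for Fgl1, -2.88 for Rgn, 2.19 for Trf and 1.46 for Clu.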

How the results depend on the processing

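Of 83 member differences given, 58 were called, none of the called ones changed direction in any alternative, and 34 were called in all. FPKM left 82 on the same side of the threshold, median-ratio and quantile rescaling 81 each, a pseudocount of 0.1 left 73, no trend 70 and no filter 67. With 1 library left out, 688 of 780 values kept their side. The number of members called changed as follows. For exHindgut against emHindgut 3 became 1 with a pseudocount of 0.1, 0 with no filter and 0 without the trend (1 to 4 on leaving out 1 library). For the region interaction 4 became 0, 1 and 1, and 2 with all 44 libraries (1 to 4). For exSI against emSI 4 became 2, 0 and 0 (1 to 4), and for exColon against emColon 1 became 0, 0 and 0, and 2 with all 44 libraries or a replicate block (0 to 1). For E13.5 cells 1 became 2 with all 44 libraries and 0 without the organ covariate (1 to 2). For small intestine against colon 2 became 1 with no filter, 1 without the trend and 0 without the origin covariate. With all 44 libraries in 1 fit, exGut against emGut had 2 (as with region as a covariate), exGut against exEndo1 5 and the organ interaction 2. The replicate block gave 4 for exEndo1 against exEndo2, and for the other comparisons it changed 4 single calls, among them Clu in colon (adjusted p = 0.015). Over all 83 differences 5 gained a call under the block and 1 lost it. Whether numbers pair the libraries there is not known. In exSI with emSI and in exColon with emColon 6 of 6 libraries correlated best with their own number, at 0.0506 to 0.0665 and 0.0161 to 0.027, a hint from the data and not from the design. Rbp4 in colon turned from -0.38 to 0.039 without exColon replicate 1 (range -0.78 to 0.039) and was never called. The cause of these changes was not tested.

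Over all genes, the calls fell from 732 to 458 for exEndo1 against exEndo2 with all 44 libraries and rose from 316 to 591 for exGut against emGut. With that fit E13.5 calls rose from 78 to 1207, small intestine from 84 to 766, colon from 30 to 1855, small intestine against colon from 162 to 1347 and the 2 interactions from 13 to 47 and from 2 to 1409. With no filter, calls fell from 321 to 173 in midgut, 378 to 223 in hindgut, 84 to 8 in small intestine, 30 to 8 in colon and 162 to 81 between organs. With a pseudocount of 0.1 they fell from 13 to 0 for the region interaction and from 30 to 10 in colon, and without the trend from 84 to 42 in small intestine. The share of calls that were higher was 76.3% in exGut against YsEndo and 54.8% after median-ratio rescaling, 26.9% and 52.6% in YsEndo against exEndo2, and 62.1% in exGut against exEndo1 and 49.4% after quantile normalization.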
